A study of Mus musculus with 3 samples.

Results

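Chromatin occupancy by the thyroid hormone receptor TRα1 was examined at 10 genes of the brain that are known to respond to thyroid hormone: Hr, Nrgn, Rasd2, Camk4, Sema7a, Itga7, Reln, Mbp, Homer1 and Flywch2. A TR binding site (TRBS) was counted for a gene when its summit, the base of highest coverage, lay inside the gene body or within 30 kb of the 5-prime end of the gene, taken as the transcription start site (TSS). This rule gave 55 TRBS out of the 23988 in the list, or 0.229%, and each of the 55 was counted for 1 of the 10 genes. The genes are compared below with the 21938 protein-coding genes of the annotation under the same rule. All positions are those of GRCm38, with gene models from GENCODE.

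The data came from ChIP-seq on the striatum of adult male C57BL/6J mice aged 8 weeks. The mice carried a GS-tagged TRα1 whose expression was restricted to striatal GABAergic neurons, and they were euthyroid and received no treatment. The 2 ChIP libraries and the 1 input library shared this genotype, so that no library without the tag was compared here. The deposited values form 1 peak list with 1 value per TRBS and none per library, so that neither the spread between mice nor the depth of each library is known, and occupancy is not compared between thyroid states. The list holds no expression values, and the labelled cell type could not be checked against marker genes. Intervals are 95% Wilson intervals that cover counting error only. No test was made for the 10 genes, because the list offers no replicates and the genes were chosen with earlier results of these data known.

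Thyroid hormone acts in the nucleus as T3, which binds to the receptors encoded by Thra and Thrb. The receptor pairs with the retinoid X receptor (RXR) and sits on response elements, of which the best known is DR4, a direct repeat of the hexamer AGGTCA with a spacer of 4 bp. In the brain, T3 is required for neuronal maturation, migration and myelination, and the genes described here include a nuclear cofactor, proteins of calcium and synaptic signaling, proteins of adhesion and the extracellular matrix, and a myelin protein.

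DR4 was searched on both strands as 2 AGGTCA hexamers spaced by 4 bp, with at most 2 mismatches among the 12 hexamer bases. Elements found inside TRBS of Hr, Nrgn, Rasd2, Sema7a and Itga7, 9 of the 16 found at the 10 genes, are printed because they show which sequences matched and how far each was from the perfect repeat. Each is read 5-prime to 3-prime on the strand named, with 12 flanking bases on each side, and capitals mark both hexamers. The distances named are those of the TRBS summit from the TSS, not those of the element. None of the 9 stretches overlaps an annotated exon.
Hr, 2723 bp upstream, chr14:70549607-70549646, minus strand: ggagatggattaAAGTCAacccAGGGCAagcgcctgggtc
Hr, beyond the 3-prime end, chr14:70574297-70574336, plus strand: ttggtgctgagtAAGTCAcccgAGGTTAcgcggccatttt
Nrgn, 20330 bp upstream, chr9:37573195-37573234, plus strand: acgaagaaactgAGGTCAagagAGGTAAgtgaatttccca
Rasd2, 20380 bp downstream, chr8:75234203-75234242, minus strand: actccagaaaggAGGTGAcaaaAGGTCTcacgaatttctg
Rasd2, same TRBS, chr8:75234269-75234308, minus strand: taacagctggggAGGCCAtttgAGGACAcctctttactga
Sema7a, 7063 bp upstream, chr9:57932930-57932969, plus strand: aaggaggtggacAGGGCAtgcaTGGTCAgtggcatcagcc
Sema7a, same TRBS, chr9:57933061-57933100, plus strand: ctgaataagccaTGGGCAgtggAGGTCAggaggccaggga
Sema7a, same TRBS, chr9:57933130-57933169, plus strand: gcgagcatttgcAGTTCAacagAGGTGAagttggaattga
Itga7, 10467 bp upstream, chr10:128923285-128923324, plus strand: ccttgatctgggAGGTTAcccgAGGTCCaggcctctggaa

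The Nrgn element differed from the perfect repeat at 1 base, in its 3-prime hexamer, and its 5-prime hexamer was intact. The other 8 elements each carried 2 mismatches. In 7 of these, each hexamer held 1 mismatch. The middle element of Sema7a had both of its mismatches in the 5-prime hexamer and an intact 3-prime hexamer.

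The 2 most enriched TRBS of the 10 genes lay at Flywch2 and Hr, and a stretch of each is printed to show the sequence at these strong peaks. The stretches are not placed alike and are not compared. The Hr stretch covers 121 bases centered on the summit of the site 2723 bp upstream, and capitals mark its single intact AGGTCA. The Flywch2 stretch covers the 120 bases just before the TSS, inside its strongest TRBS but without its summit, which lies 10 bp past the TSS. No intact AGGTCA occurs in this stretch, although the whole TRBS holds 2.
Hr, summit of the strongest TRBS, chr14:70549429-70549549, plus strand: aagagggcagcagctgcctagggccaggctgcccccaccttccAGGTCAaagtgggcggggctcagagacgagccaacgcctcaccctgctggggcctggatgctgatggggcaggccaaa
Flywch2, upstream of the TSS, chr17:23786082-23786201, minus strand: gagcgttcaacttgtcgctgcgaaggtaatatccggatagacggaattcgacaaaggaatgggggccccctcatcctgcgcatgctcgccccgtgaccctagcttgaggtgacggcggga

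TRBS were described by 2 values of the peak caller. The pileup counts the ChIP fragments stacked at the summit, and the fold enrichment (hereafter enrichment) divides the pileup by the local background after adding 1 to both. Over the 55 TRBS, pileup ranged from 14 to 252 fragments with a median of 25, and fold enrichment from 5.14 to 92.3 with a median of 8.55. The 23988 TRBS of the list had a median pileup of 21 and a median fold enrichment of 7.40. The TRBS of the 10 genes therefore spanned weak and strong peaks, and 10 of the 55 (18.2%) stood in the strongest 10% of the list.

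Hr encodes Hairless, a corepressor of nuclear receptors that is induced by T3 in the brain. The gene occupies chr14:70552212-70573548 on the plus strand and had 7 TRBS. Its strongest TRBS, chr14:70549074-70549861, lay 2723 bp before the TSS. It had 192 fragments at the summit and an enrichment of 71.8, rank 51 by enrichment in the whole list. Among protein-coding genes with a TRBS, 99.4% had a lower strongest enrichment than Hr. The intact hexamer printed above was centered 15 bp before the summit of this TRBS, whereas the center of its DR4 element was 137 bp past it.

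Another TRBS of Hr, chr14:70551754-70552567, peaked 98 bp before the TSS with 57 fragments and an enrichment of 21.6. The TSS of Hr used here is the start of a transcript annotated as processed, not as protein-coding. The protein-coding transcripts begin 1475, 1844 and 3688 bp downstream of it, and the first of these starts was 1573 bp from this summit. The TRBS at chr14:70574083-70575293, past the 3-prime end of the gene, reached 65 fragments and an enrichment of 24.5, with its DR4 element 151 bp from the summit. Thus 3 of the 7 TRBS of Hr contained DR4, and these were its 3 most enriched ones. The one past the 3-prime end lay closer to the TSS of Nudt18, at 3170 bp, than to that of Hr.

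The other 4 TRBS of Hr had no DR4 and were all nearer to the start of a neighboring gene. The 2 farthest upstream, with enrichments of 6.83 and 5.14, lay in Lgi3. A TRBS 7064 bp upstream had an enrichment of 8.55 and was 103 bp from the TSS of Reep4, and one at 25491 bp downstream of the Hr TSS had an enrichment of 15.2 and was 66 bp from the TSS of Nudt18. Of the 7 TRBS counted for Hr, only the 2 at 2723 and 98 bp had Hr as the nearest gene.

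Flywch2, a gene of the FLYWCH zinc finger family, occupies chr17:23776916-23786081 on the minus strand and had 3 TRBS. The TRBS chr17:23785388-23786451 had its summit 10 bp inside the non-coding part of exon 1, with 252 fragments and an enrichment of 92.3. It was the strongest TRBS of the 10 genes and rank 16 of the whole list. No DR4 was found in it. The closest approach to DR4 in this TRBS had 4 mismatches, and within 100 bp of the summit it had 5. It held 2 intact AGGTCA hexamers, 602 and 371 bp from the summit, both toward the 3-prime end of the gene. The other TRBS, 5049 and 16906 bp upstream, had enrichments of 7.86 and 5.59, lay in Srrm2 and lacked DR4.

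**Figure D1:**
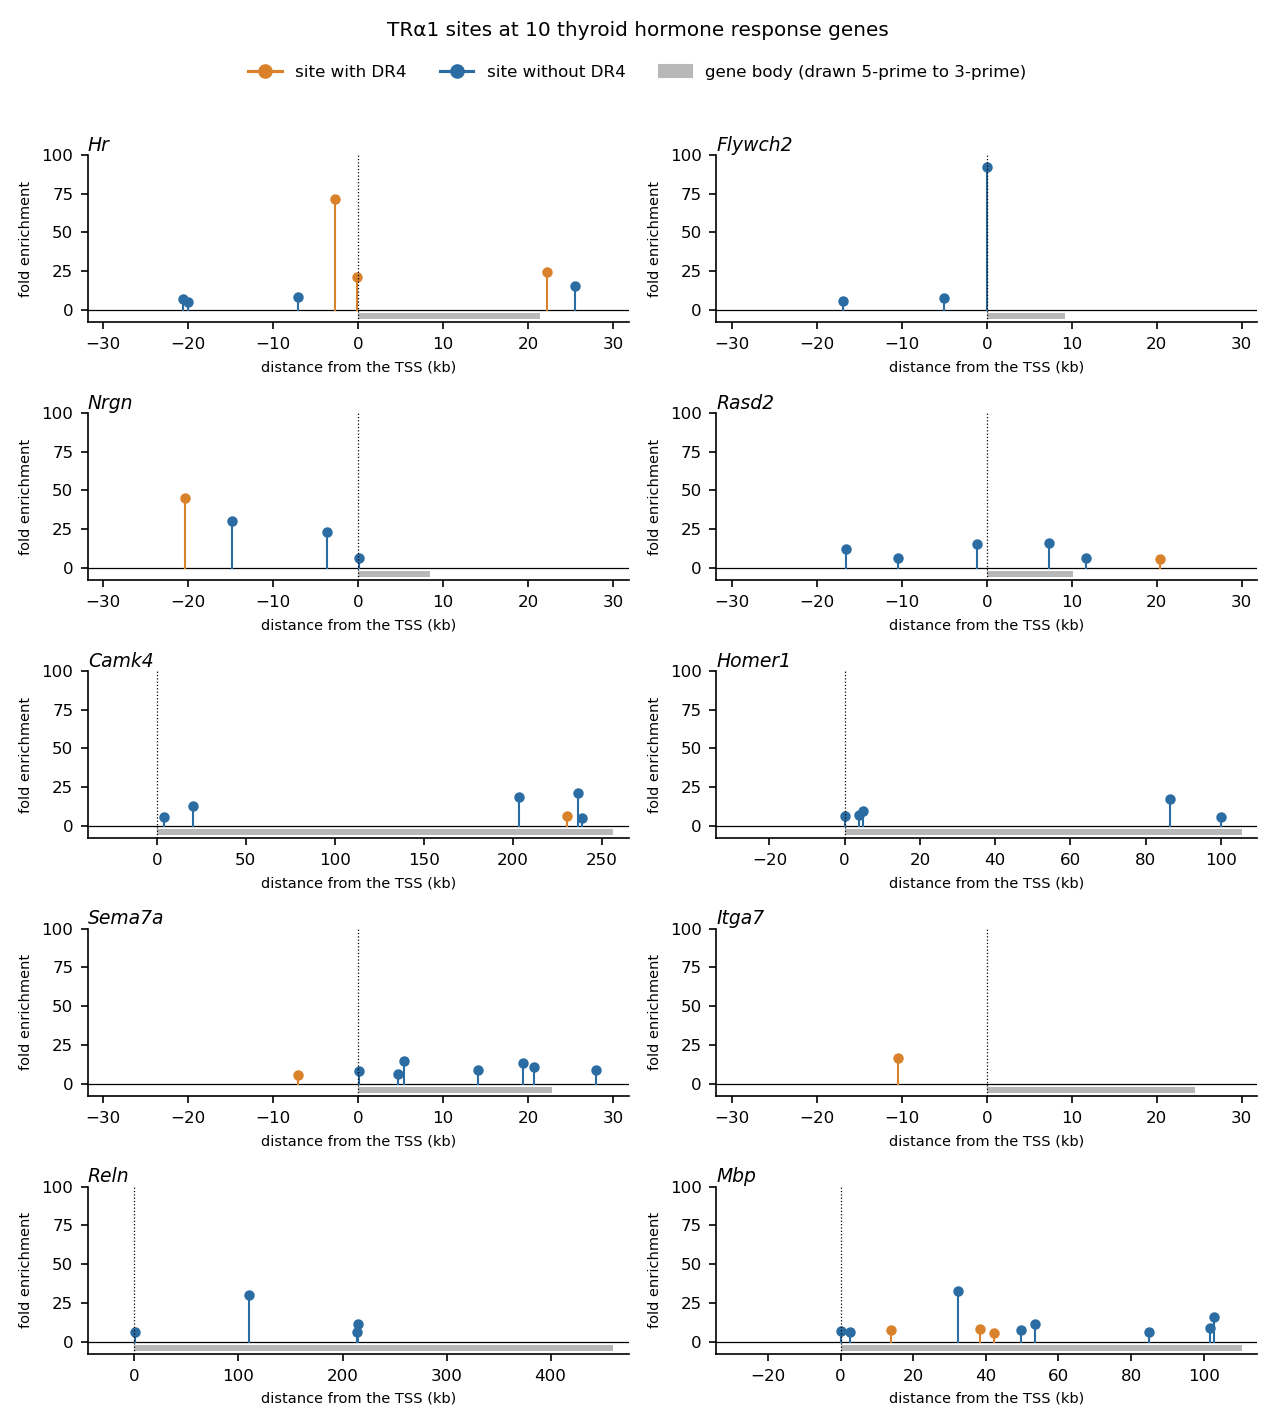
TRBS of the 10 genes, 1 panel per gene, with the distance from the TSS in kb on the x axis (positive downstream) and the fold enrichment on the y axis. Orange stems are TRBS with DR4, blue stems are TRBS without DR4, and the grey bar is the gene body. The panels show the stems of 71.8 at Hr and 92.3 at Flywch2, the upstream row of Nrgn and the single TRBS of Itga7.

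The genes of calcium and synaptic signaling were Nrgn, Rasd2, Camk4 and Homer1, with 4, 6, 6 and 5 TRBS. Nrgn encodes neurogranin, a postsynaptic protein that binds calmodulin. It occupies chr9:37544492-37552904 on the minus strand, and its TRBS formed a row upstream of the TSS in which enrichment rose with distance. The TRBS at the TSS, 140 bp inside the non-coding part of exon 1, had 18 fragments and an enrichment of 6.29. Those at 3658, 14804 and 20330 bp upstream had 68, 80 and 120 fragments, for enrichments of 23.4, 30.1 and 45.0.

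The farthest of these, chr9:37572898-37573551, ranked 286 in the list and was the only one with DR4, the element with 1 mismatch printed above, whose center was 20 bp from the summit. This was the closest agreement with DR4 among the strongest TRBS of the 10 genes. The 3 upstream TRBS lay inside Siae, a gene read in the opposite direction, and their nearest protein-coding TSS was that of Siae, at 864 to 17536 bp.

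Rasd2 encodes Rhes, a small GTPase enriched in the striatum. It occupies chr8:75213944-75224113 on the plus strand, and all 6 of its TRBS had Rasd2 as the nearest gene. The strongest were an intronic TRBS 7269 bp downstream of the TSS, with 56 fragments and an enrichment of 16.2, and a TRBS 1108 bp upstream, with 45 fragments and 15.2. One at 16531 bp upstream followed with 12.2, and those at 10404 bp upstream and 11631 bp downstream both had 6.69. The only TRBS with DR4 was the weakest, 20380 bp downstream, with 14 fragments and an enrichment of 5.55. Its 2 elements were 102 and 36 bp from the summit.

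Homer1 encodes a postsynaptic scaffold that links metabotropic glutamate receptors to calcium stores. It occupies chr13:93299635-93405129 on the plus strand, and no DR4 was found in its 5 TRBS. The strongest, chr13:93386006-93386500, lay in an intron 86545 bp from the TSS, with 47 fragments and an enrichment of 17.2. The other 4 had enrichments of 5.49 to 9.62. Annotated starts were close to 3 of the 5 summits: the TSS at 24 bp from the one with 6.32, and the starts of other transcripts at 253 bp from the one with 6.98 and at 65 bp from the one with 9.62. These other starts belong to the 10 transcripts that begin between 4122 and 5643 bp downstream of the gene's 5-prime end. These 10 are annotated as protein-coding, whereas the transcript at the TSS is annotated as processed.

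Camk4 encodes a calmodulin-dependent kinase of the nucleus that phosphorylates CREB. It occupies chr18:32934931-33191228 on the plus strand, and all 6 TRBS lay in introns. The strongest were found far inside the gene, 236364 bp from the TSS with 60 fragments and an enrichment of 20.96, and 203646 bp from the TSS with 49 fragments and 18.6. The TRBS 20097 bp from the TSS had an enrichment of 12.6. The remaining 3 were weak, with 5.29, 5.58 and 6.12, and the TRBS with 6.12, 230469 bp from the TSS, was the only one with DR4. The TRBS with 5.58 lay 82 bp from the start of a protein-coding Camk4 transcript, which begins 4227 bp downstream of the TSS. The 4 distal TRBS had Stard4 as the nearest gene, at 40400 to 75285 bp.

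The genes of adhesion, guidance and extracellular matrix were Sema7a, Itga7 and Reln. Sema7a encodes a membrane-anchored semaphorin that promotes axon growth through integrins. It occupies chr9:57940112-57962865 on the plus strand and had 8 TRBS, or 13.3 per 100 kb of its window, the densest set among the 10 genes. Fold enrichment was moderate throughout, from 5.58 to 14.5. The strongest TRBS was intronic, 5398 bp from the TSS, with a pileup of 38. The TRBS at the TSS, 86 bp inside coding exon 1, had 25 fragments and an enrichment of 8.01.

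DR4 was found in 1 of the 8 TRBS of Sema7a, the one 7063 bp upstream, which had the lowest enrichment of the 8 and a pileup of 19. Its 3 elements are printed above and lay 100, 31 and 100 bp from the summit, all on the strand of the gene. The TRBS 19388 bp from the TSS, with an enrichment of 13.6, contained 3 intact AGGTCA hexamers but no DR4. All 8 TRBS had Sema7a as the nearest gene.

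Itga7 encodes a laminin-binding integrin alpha subunit. It occupies chr10:128933818-128958282 on the plus strand and was the only one of the 10 genes with a single TRBS. This TRBS, chr10:128923008-128923631, lay 10467 bp upstream with 62 fragments and an enrichment of 16.5. Its DR4 element was 47 bp from the summit. The summit lay in Bloc1s1 and only 463 bp from the TSS of Rdh5. No TRBS was listed in the body or at the TSS of Itga7.

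Reln encodes reelin, the secreted matrix protein that positions migrating neurons. It occupies chr5:21884454-22344702 on the minus strand, and at 460 kb it was the longest of the 10 genes. It had 4 TRBS and no DR4 in any of them. The strongest, chr5:22234684-22235482, lay in an intron 109720 bp from the TSS, with 81 fragments and an enrichment of 29.9, rank 904 in the list. A pair with enrichments of 6.26 and 11.4 lay 899 bp apart, more than 200 kb inside the gene. The TRBS at the TSS was weak, with 21 fragments and an enrichment of 6.44 in a sequence of 79.0% GC.

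Mbp encodes myelin basic protein, a structural protein of the myelin sheath that T3 induces in oligodendrocytes. The annotated 5-prime end of the gene is that of the longer Golli transcripts, and the transcripts of the myelin forms start inside the gene. Mbp occupies chr18:82475146-82585637 on the plus strand and had 11 TRBS, the highest number among the 10 genes. The strongest lay in an intron 32356 bp from the TSS, with 119 fragments and an enrichment of 32.7, rank 724 in the list. It had no DR4. The tagged receptor is described as confined to GABAergic neurons, whereas the myelin forms are made by oligodendrocytes. The next TRBS was intronic, 102722 bp from the TSS, with 41 fragments and an enrichment of 15.6, and the other 9 had enrichments of 5.58 to 11.2.

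DR4 was found in 3 TRBS of Mbp, none with an enrichment above 7.91, against a median of 7.40 for the list. The TRBS 13824 bp from the TSS contained the only perfect DR4 in the windows of the 10 genes, 20 bp from its summit, and it had 20 fragments and an enrichment of 7.77. The TRBS at 38325 and 42286 bp had enrichments of 7.91 and 5.58. At the TSS, a TRBS 76 bp inside exon 1 had 18 fragments and an enrichment of 7.07. No TRBS was listed within 1 kb of the inner starts. The 11 transcripts that begin 79324 to 79434 bp from the TSS were 5398 bp from the nearest summit, and the transcript that begins at 88116 bp was 3284 bp from it.

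All 10 genes had at least 1 TRBS, whereas 57.7% of all protein-coding genes did. The number per gene ranged from 1 at Itga7 to 11 at Mbp with a median of 5.5, against a median of 1 for all protein-coding genes. Both groups had a median window of 60.001 kb, the smallest that the rule allows. Since the gene body adds to the window, the count was also taken per length: the summed windows held 3.89 TRBS per 100 kb for the 10 genes and 1.54 per 100 kb for all protein-coding genes. The values of single genes ran from 0.816 for Reln, the only one under 1.54, through 1.67 for Itga7 and 2.10 for Camk4, to 11.7 for Hr and 13.3 for Sema7a.

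The strongest TRBS of each gene had a median enrichment of 25.4, against 10.04 for all protein-coding genes with a TRBS. Flywch2 and Hr stood above 99.8% and 99.4% of these genes, and Nrgn, Mbp and Reln above 96.8%, 92.6% and 90.6%. Camk4, Homer1, Itga7, Rasd2 and Sema7a ranged from 82.3% down to 68.2%. A gene with more TRBS has more chances to hold a strong one, and the comparison was not adjusted for the number per gene. Reln combined 4 TRBS with a strong one, whereas none of the 8 TRBS of Sema7a exceeded 14.5.

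**Figure D2:**
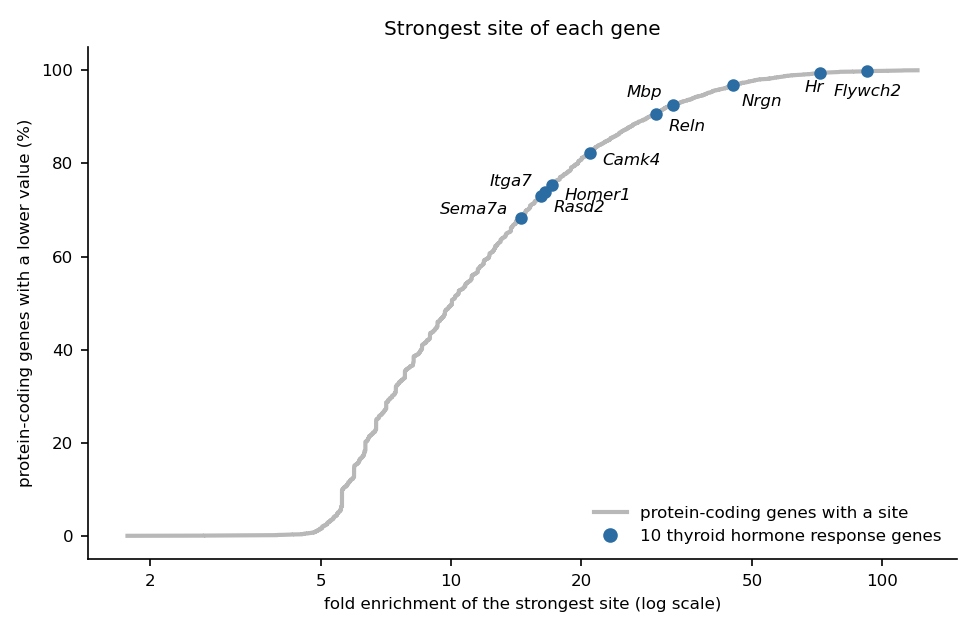
Fold enrichment of the strongest TRBS of each gene on a log scale (x axis) against the percentage of protein-coding genes with a TRBS that have a lower value (y axis). The grey curve covers the 12648 genes with a TRBS and the points are the 10 genes, which run from Sema7a at 14.5 to Flywch2 at 92.3.

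A TRBS lay within 1 kb of the TSS in 7 of the 10 genes, against 23.2% of all protein-coding genes. These genes were Hr, Nrgn, Sema7a, Reln, Mbp, Homer1 and Flywch2. For Hr and Homer1 this TSS is the start of a transcript annotated as processed, not as protein-coding. No summit lay within 1 kb of a protein-coding start of Hr, the nearest being 1573 bp away. When any annotated transcript start was allowed, 8 genes had such a TRBS, with Camk4 in addition, against 27.4% of all protein-coding genes. Apart from Flywch2 with 92.3 and Hr with 21.6, the TRBS at the TSS had enrichments between 6.29 and 8.01. The median of the 7 was 7.07, against 7.81 for all TRBS of the list within 1 kb of a TSS. Flywch2 was the only one of the 10 genes whose strongest TRBS lay at the TSS. For Rasd2, Camk4 and Itga7 the nearest TRBS were 1108, 4145 and 10467 bp from the TSS. The one of Camk4 lay 82 bp from the start of a protein-coding transcript, whereas the TSS of Camk4 is that of a transcript annotated for nonsense-mediated decay.

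Of the 55 TRBS, 34 lay inside the gene: 26 in introns, 6 in non-coding parts of exons and 2 in coding exons. A further 16 lay upstream and 5 past the 3-prime end. Distances within 30 kb accounted for 38 TRBS, and 17 were counted only because they lay in the body of a long gene. The own TSS was the nearest protein-coding TSS for 39 of the 55 TRBS (70.9%, interval 57.9 to 81.2). In 5 genes, Hr, Nrgn, Flywch2, Sema7a and Itga7, a total of 17 TRBS also fell in the window of another protein-coding gene, while Reln, Rasd2, Homer1, Camk4 and Mbp shared none. The data do not tell which of these genes a shared TRBS acts on.

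At the edge of the rule, the outermost TRBS counted by distance lay 27938 bp from the TSS of Sema7a with an enrichment of 8.78 and 25491 bp from that of Hr with 15.2. Another 8 TRBS lay just outside, within 50 kb of a TSS. They belonged to Hr, Nrgn, Rasd2, Sema7a and Flywch2, and none contained DR4. The strongest of them, 48174 bp downstream of the Sema7a TSS, had an enrichment of 27.3, higher than any of the 8 TRBS counted for that gene, and its nearest gene was Cyp11a1. The nearest to the limit, 32913 and 33700 bp downstream of the Hr TSS, had enrichments of 9.67 and 13.0.

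DR4 was found in 11 of the 55 TRBS (20%, interval 11.6 to 32.4), against 17.3% of all TRBS in the list. At least 1 TRBS with DR4 was present in 7 of the 10 genes, against 17.8% of all protein-coding genes. A gene with several TRBS has more chances to hold one with DR4, so the share per TRBS and the share per gene answer different questions. The share per TRBS was close to that of the whole list and the list's value fell inside its interval. Among the 9 genes with at least 2 TRBS, 4 (Nrgn, Rasd2, Camk4 and Sema7a) had exactly 1 with DR4, 3 (Reln, Homer1 and Flywch2) had none, and 2 (Hr and Mbp) had 3. Of all protein-coding genes with at least 2 TRBS, 31.1% had exactly 1 with DR4.

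The strength of a TRBS did not follow the presence of DR4 in a uniform way across the genes. The strongest TRBS contained DR4 in Hr, Nrgn and Itga7 and lacked it in the other 7 genes. In Hr the 3 TRBS with DR4 were the most enriched, while in Rasd2 and Sema7a the TRBS with DR4 were the weakest of the gene. Over the 55 TRBS, the median enrichment was 7.91 with DR4 and 8.67 without, whereas over the whole list it was 8.18 with DR4 and 7.08 without. With 11 TRBS in the smaller group and single values from 5.55 to 71.8 in it, the order of the medians in the 10 genes is not firm. Among the 10 TRBS of these genes in the strongest 10% of the list, 4 (40%) contained DR4, against 25.1% of all TRBS in that part. These 4 were the 3 of Hr and the 1 of Nrgn.

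The single hexamer was searched without mismatch on both strands. AGGTCA occurred in 26 of the 55 TRBS (47.3%, interval 34.7 to 60.2), against 30.7% of all TRBS. Per kb of TRBS sequence, 1.13 hexamers were found for the 10 genes and 0.802 for the list. Every gene but Itga7 had at least 1 TRBS with an intact hexamer, but a gene with several TRBS has more chances to hold one. No share over all protein-coding genes is given for this count. The TRBS of the 10 genes were slightly longer, with a median of 481 bp against 422 bp, and had a median GC content of 51.7% against 49.6%, and the part of these features in the hexamer count was not tested.

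The windows of the 10 genes contained 163 DR4 matches, of which 16 (9.82%, interval 6.13 to 15.3) lay in a TRBS. In the windows of all protein-coding genes this was 2.41%. TRBS also covered more of the sequence at the 10 genes, 2.15% of the 1.41 Mb in their windows against 0.669% for all protein-coding genes. Most DR4 matches at the 10 genes were thus unoccupied in this list, 147 of 163. Reln had 37 matches, Flywch2 8 and Homer1 6, and none of these lay in a TRBS, while Mbp had 5 of 30, Hr 3 of 14 and Sema7a 3 of 11 inside. Peaks with a score under 60 are not in the list, so unoccupied here means outside a listed TRBS.

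**Figure D3:**
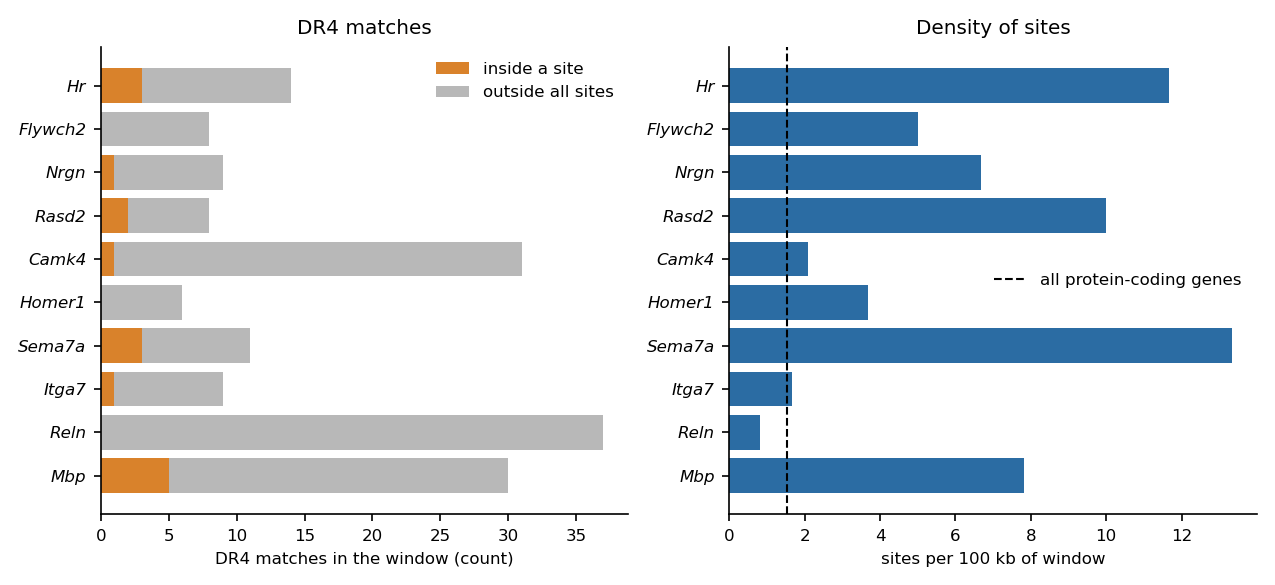
Left, DR4 matches in the window of each of the 10 genes (x axis, count), split into those inside a TRBS (orange) and those outside (grey). Right, TRBS per 100 kb of window (x axis) for each gene, with the dashed line at the value of all protein-coding genes, 1.54. Reln has the longest grey bar, with 37 matches outside, and the shortest bar on the right, at 0.816.

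Unoccupied elements included ones closer to the perfect repeat than most occupied ones. Over the windows of all protein-coding genes, 17.0% of perfect repeats lay in a TRBS, against 5.41% with 1 mismatch and 2.09% with 2. Of 13 matches with at most 1 mismatch in the windows of the 10 genes, 2 lay in a TRBS, namely the Nrgn element printed above and the perfect repeat of Mbp, and 11 did not. Those of Hr, Sema7a, Homer1 and Reln are printed for comparison with the occupied elements. Capitals mark the hexamers, and each is 1 base away from the perfect repeat. The distances named here are those of the element itself from the TSS.
Hr, 26920 bp upstream, chr14:70525285-70525300, plus strand: AGGTCAgaaaAGGACA
Sema7a, 11179 bp upstream, chr9:57928926-57928941, minus strand: AGGTCAgtacAGGGCA
Homer1, 35532 bp downstream, chr13:93335160-93335175, minus strand: AGGTCAtttaAGGTCT
Reln, 321778 bp downstream, chr5:22022917-22022932, minus strand: AGGTCAaatgAGGTCC
Reln, 238919 bp downstream, chr5:22105776-22105791, plus strand: AGGCCAaaacAGGTCA
Reln, 189879 bp downstream, chr5:22154816-22154831, plus strand: AGCTCAggaaAGGTCA
Reln, 156463 bp downstream, chr5:22188232-22188247, plus strand: AGGTCAggagAGGACA

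The nearest TRBS summits were 6329 bp from this Hr element, 4116 bp from that of Sema7a and 30737 bp from that of Homer1. An unprinted one of Mbp was only 425 bp from a summit, outside the limits of the TRBS. In Reln the 4 elements were 23746 to 106605 bp from the nearest summit. Reln had 4 of the 11 unoccupied elements with 1 mismatch, in a window of 490.2 kb out of 1.41 Mb for the 10 genes. Its window held 7.55 DR4 matches with up to 2 mismatches per 100 kb, against 11.5 for the 10 genes.

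Other genes known to respond to thyroid hormone in the nervous system were examined under the same rule for comparison, as a list of 16 genes. A TRBS was found in 11 of the 16, a TRBS within 1 kb of the TSS in 3 and a TRBS with DR4 in 6. The shares over all protein-coding genes were 57.7%, 23.2% and 17.8%. Their median was 1 TRBS per gene, the same as for all protein-coding genes. Their summed windows held 2.10 TRBS per 100 kb, against 1.54 for all protein-coding genes. The strongest TRBS of each of the 11 genes had a median enrichment of 23.1. The 3 highest were Klf9, a T3-induced transcription factor, with 8 TRBS and a strongest enrichment of 47.7, Thrb, which encodes the other T3 receptor, with 11 TRBS and 38.3, and Itpr1, the inositol trisphosphate receptor, with 13 TRBS and 28.3. Genes without a TRBS included Mag of myelin, the retinaldehyde dehydrogenases Aldh1a1 and Aldh1a3, and Shh. Among the myelin genes, Mbp had 11 TRBS, Cnp and Mobp had 1 each, and Mag had none.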

How the data were processed

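TRα1 ChIP-seq was analysed from 1 peak list of the series. Per the submitters' processing notes, the authors used Bowtie2 2.3.2.2, MACS2 2.1.1.20160309.0 and the mm10 build (GRCm38), and the methods of the study state that peaks with a score below 60 were removed. Whether the ChIP libraries were pooled, and how duplicate reads were treated, is not given in the sources used here. Pileup, as deposited, gives the coverage by fragments at each summit. The deposited fold enrichment is the ratio of pileup to local background. From the same deposited list, the score, which is a truncated multiple of the −log10 q-value, was used only to filter TRBS, and −log10 p was not used. The list gives no depth per library, so no value carries a replicate error.

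Gene models were those of GENCODE vM21, and the outermost 5-prime base of a gene served as its TSS. A TRBS was counted as having DR4 when a match lay wholly inside it. For the share of DR4 matches in the windows, a match was counted inside a TRBS when it overlapped it. Windows were the gene body plus 30 kb on each side of the TSS. Sequences were read with samtools 1.23.1 from the reference of the same build, and the search and the counts, made with Python 3.11.15, numpy 2.4.6, pandas 2.3.3 and scipy 1.17.1, were tested on simulated data. Alternatives were other distances, the gene body left out, a score of at least 200, peak midpoints, any transcript start, other mismatch limits and the 100 bp around the summit. The genes, lists and rules were chosen with earlier results of these data known. All 10 genes were named, other genes only where they were nearest to a TRBS, where a summit lay inside them (Bloc1s1) or, from the list of 16 written from general knowledge, were the 3 with the highest fold enrichment. The genes named without a TRBS, and Cnp, Mobp and Bloc1s1, were named after their values were seen. A sequence and a gene are not reported here.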

Additional observations from a re-analysis of the deposited data

How the results depend on the processing

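Counts and medians were called unchanged when within 1.5 times the reported value, and shares when inside the interval of the reported share. By these rules, 34 of 45 recomputed summary values were unchanged and 11 were not. With a distance of 10 kb, 4 genes had a TRBS with DR4 (12.2% of all protein-coding genes), and 9 had a TRBS (44.7%), since that of Itga7 was lost. With a score of at least 200, 24 TRBS remained, 2 genes had one at the TSS (9.22% of all) and 3 had one with DR4 (8.79%). The median fold enrichment was then 16.8, against 14.5 for the whole list, and 3.07% of DR4 matches lay in a TRBS, against 0.966% in all windows. With at most 1 mismatch, 3.64% of the TRBS had DR4, against 3.86% of the list. A TRBS with DR4 was then present in 2 genes (4.91% of all), and 15.4% of the matches lay in a TRBS, against 6.03%. With at most 3 mismatches, these shares were 54.5% of the TRBS, against 52.9%, and 4.26% of the matches, against 1.21%.

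The strongest fold enrichment of a gene changed by more than 1.5 times in 6 of 39 values. It was 23.4 for Nrgn at 10 kb and 27.3 for Sema7a at 50 kb. Without the gene body it was 6.44 for Reln, 9.62 for Homer1, 12.6 for Camk4 and 7.77 for Mbp, since their strongest TRBS are distal introns. No paired analysis was possible because the list holds no values per library, and for the same reason no library was left out in turn.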

Other observations

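Motifs of other factors were searched without mismatch on both strands in the 55 TRBS of the 10 genes and in the whole list. The AP-1 motif TGAGTCA occurred in 11 of the 55 (20%), against 14.3% of the list, in TRBS of Hr, Nrgn, Rasd2, Sema7a, Reln, Mbp and Flywch2. The GC-rich Sp motif GGGCGG occurred in 17 (30.9%), against 28.6%. Each of the 10 genes had at least 1 such TRBS, but a gene with several TRBS has more chances to hold one. No share over all protein-coding genes is given for this count. The CRE motif TGACGTCA was found in 1 TRBS, at Mbp (1.82%), against 1.33% of the list. The Egr motif GCGTGGG was found in 1 TRBS, at Rasd2 (1.82%, interval 0.322 to 9.61), against 8.73% of the list.

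Other spacings and orientations of the AGGTCA repeat were searched with at most 2 mismatches. Direct repeats with spacers of 0 to 3 and 5 to 8 bp occurred in 2 to 6 of the 55 TRBS each (3.64 to 10.9%), against 5.02 to 7.12% of the list. DR4 itself occurred in 20%, against 17.3%, so the excess of DR4 over other spacings is seen in the whole list as well. The inverted repeat without spacer was found in 1 TRBS, at Flywch2 (1.82%), against 2.44% of the list. The everted repeat with a spacer of 6 bp was found in 0, against 2.69% of the list. Because 1 sequence can match several of these arrangements, the counts overlap.

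Some TRBS of the same gene were close together. The smallest distance between summits was 527 bp at Hr, 775 bp at Sema7a, 899 bp at Reln, 926 bp at Homer1, 949 bp at Mbp and 2167 bp at Camk4. Neighboring summits at Nrgn, Rasd2 and Flywch2 were at least 3798, 4362 and 5059 bp apart. The median distance between neighboring summits of a gene ranged from 3788.5 bp at Hr to 104554 bp at Reln, and it was not computed for other genes.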
